A study of Mus musculus with 10 samples.

Results

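A group of 119 maternal genes, of 21437 genes in the table, had high mRNA in MII oocytes, little in middle 2-cell embryos and high mRNA again in early 4-cell embryos. The members were chosen by measured values in the 6 control libraries alone. The lowest MII oocyte FPKM (mapped fragments scaled to the exon length of the gene and to the size of the library) had to be 10 or more, and the highest 2-cell control FPKM at most 25% of it. The lowest 4-cell control FPKM had to be 10 or more and at least 4 times the highest 2-cell control FPKM. In all, 132 genes met these thresholds. Of these, 13 were left out because their names begin with prefixes of large families such as ribosomal, proteasome and translation initiation genes. The low 2-cell and high 4-cell control values of the members are therefore given as a description, and the data that the choice did not use are the 4 libraries of embryos depleted of Ago2.

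The RNA-seq data held 5 groups of 2 libraries each. MII oocytes and control 2-cell and 4-cell embryos were labelled wild type. Ago2 kd 2-cell and 4-cell embryos had been injected as zygotes with siRNA against Ago2 and antibodies against the AGO2 protein, and the Ago2 gene itself was not deleted. The Methods of the study describe a mixture of siRNA and antibodies, whereas its figure legends name siRNA or antibodies. The labels name strain ICR for every library, whereas the Methods give ICR females for the oocytes and F1 females mated with F1 males for the embryos, so strain cannot be told apart from the step from oocyte to embryo. Females were 7 weeks old and had received 6.5 IU of PMSG and 5 IU of hCG 47 h later. A scrambled siRNA was the negative control of the study, but the labels do not say whether the control embryos of these libraries were injected. How many embryos each library pooled is not given in the sources used here, and nothing says that replicates 1 and 2 came from separate collections, so p-values measure only the spread between these libraries. The Ago2 transcript was not analysed here, so the depletion was not checked again in these libraries. The study itself reported the depletion by q-PCR, by immunofluorescence and from its RNA-seq data.

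Oocyte markers separated the stages, whereas markers of the 4-cell stage did not. The summed FPKM of 12 oocyte genes was 8871 and 10564 in oocytes, 1645 to 2011 in the 4 libraries of 2-cell embryos and 6.31 to 42.2 in the 4 libraries of 4-cell embryos. The 10 measured genes of the 2-cell stage summed to 821 and 950 FPKM in 2-cell control, 494 and 550 in 2-cell Ago2 kd, 8.82 and 8.36 in 4-cell control, and 42.0 and 34.7 in the Ago2 kd libraries of that stage. The 13 measured genes of the 4-cell stage summed to 168 and 708 FPKM in oocytes, 393 to 497 in the 2-cell libraries and 501 to 741 in the 4-cell libraries. Markers of cumulus and granulosa cells (4 of 16 measured) summed to 1.78 FPKM or less in every library, and those of sperm (3 of 10 measured) to 1.78 or less. The depth of the libraries is unknown, since FPKM do not hold read numbers. A value at or near 0 may be a failed estimate. Gapdh, which nearly every cell uses, had 0.167 FPKM or less in each library and was listed at 0 in 4-cell Ago2 kd replicate 2. The same doubt holds for members above 0 and below 1 FPKM, of which 2-cell control replicates 1 and 2 had 29 and 32. Actb, another such gene, had 91.1 and 1.61 FPKM in the 4-cell controls. Replicates were least alike in 4-cell Ago2 kd embryos, where Pearson's r of log2(FPKM + 1) across the genes tested was 0.75, against 0.812 to 0.913 in the other groups. Such an r is across genes, which are not independent replicates.

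Oocytes store mRNAs made during their growth, and most of this stock is destroyed after fertilization, while transcription from the embryo's own genome starts. AGO2 is the Argonaute protein that can cut an mRNA paired with a small RNA, and it is present in oocytes and early embryos. Genes of general cell growth, such as those that build ribosomes, replicate DNA and divide chromosomes, can be supplied by the oocyte and then made again by the embryo.

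By hand, after the values had been seen, the members were placed in groups by known role, of which the groups for membranes, traffic and adhesion (17 genes), chromatin and transcription (14), nucleolus and ribosome assembly (13), and protein synthesis, folding and turnover (11) had the most members. DNA replication and repair and RNA processing, export and decay had 10 members each, transporters, mitochondria and metabolism 9, and chromosome segregation and cell division 8. A further 10 named genes had other roles, and 17 rows were pseudogenes, small RNAs or numbered loci. Of the 115 members found by name in the annotation, 100 were protein coding, 12 processed pseudogenes, 1 a transcribed processed pseudogene and 2 miRNA rows. Protein-coding members had a median of 5 annotated transcripts, as did all 6549 protein-coding genes tested.

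Promoters are shown for the nucleolus and ribosome assembly group because 10 of its 13 genes rose in Ago2 kd embryos (23.8% of all genes tested), as described further on. Only promoters that hold a motif named below are printed, whether or not the gene rose, and Nip7 among them did not pass the test for the rise. Each line gives the 250 bases that precede the annotated start of transcription in RefSeq (GRCm38.p6), 5′ to 3′ on the strand of the gene. Of the 9 genes of this group with a promoter in the sequence table, 4 held CCGGAA or its reverse complement TTCCGG, the core that ETS factors bind, and 2 held TGACGTCA, the core that CREB and ATF factors bind; capitals mark these letters.
Dnajc21 (chr15:10470517-10470766, minus strand): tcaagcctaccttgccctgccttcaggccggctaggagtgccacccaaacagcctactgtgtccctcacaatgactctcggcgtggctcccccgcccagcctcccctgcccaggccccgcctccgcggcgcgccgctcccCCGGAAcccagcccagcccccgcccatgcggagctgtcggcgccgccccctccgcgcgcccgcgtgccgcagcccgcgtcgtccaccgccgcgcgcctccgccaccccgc
Ftsj3 (chr11:106256085-106256334, minus strand): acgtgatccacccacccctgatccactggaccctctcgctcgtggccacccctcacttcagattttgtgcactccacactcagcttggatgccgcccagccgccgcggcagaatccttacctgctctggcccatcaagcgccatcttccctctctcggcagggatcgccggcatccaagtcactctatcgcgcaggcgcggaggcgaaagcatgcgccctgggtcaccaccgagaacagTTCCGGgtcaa
Nip7 (chr8:107056627-107056876, plus strand): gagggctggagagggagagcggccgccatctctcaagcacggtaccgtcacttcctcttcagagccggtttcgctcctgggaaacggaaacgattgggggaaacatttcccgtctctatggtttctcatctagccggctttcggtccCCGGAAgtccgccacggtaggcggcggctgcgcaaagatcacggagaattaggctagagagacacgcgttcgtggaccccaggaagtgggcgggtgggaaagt
Rbm28 (chr6:29164725-29164974, minus strand): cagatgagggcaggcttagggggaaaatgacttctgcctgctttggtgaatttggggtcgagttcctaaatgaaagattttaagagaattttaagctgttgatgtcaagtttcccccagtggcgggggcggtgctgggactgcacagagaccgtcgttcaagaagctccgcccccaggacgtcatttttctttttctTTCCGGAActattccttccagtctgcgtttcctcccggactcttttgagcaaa
Ccdc86 (chr19:10949267-10949516, minus strand): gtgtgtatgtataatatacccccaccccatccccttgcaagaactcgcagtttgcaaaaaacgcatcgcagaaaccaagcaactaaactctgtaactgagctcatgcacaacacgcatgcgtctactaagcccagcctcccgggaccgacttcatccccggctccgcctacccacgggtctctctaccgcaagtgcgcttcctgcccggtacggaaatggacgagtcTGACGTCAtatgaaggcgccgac
Ppan (chr9:20887925-20888174, plus strand): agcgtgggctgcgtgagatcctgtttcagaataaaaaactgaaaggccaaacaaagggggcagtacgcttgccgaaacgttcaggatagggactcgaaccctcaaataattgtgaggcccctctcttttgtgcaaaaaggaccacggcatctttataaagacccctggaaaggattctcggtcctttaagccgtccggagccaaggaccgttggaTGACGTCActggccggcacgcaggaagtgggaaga
The motif ended 5 bases before the start in Ftsj3, 97 in Nip7 and 104 in Dnajc21, and 45 in Rbm28, where CCGGAA and TTCCGG overlap in a single palindromic run. TGACGTCA ended 15 bases before the start in Ccdc86 and 27 in Ppan.

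Over windows of 250 bases before to 50 bases after the start, searched on both strands, CCGGAA lay in 45.8% of 83 windows of 76 members, in 31.6% of 6843 windows of the genes tested and in 14.9% of all 32851 windows. The GC box GGGCGG lay in 67.5%, 61.3% and 35.7% of the same 3 sets, and TGACGTCA in 7.23%, 3.46% and 1.79%. CCAAT was found in 41.0%, 39.5% and 37.4%, TATAAA in 8.43%, 7.38% and 13.6%, and the E-box CACGTG in 13.3%, 10.3% and 7.15%. Such matches describe the letters in the window; no binding was measured, and no test was made. Of the 6 motifs, CCGGAA thus had the largest difference in share between members and genes tested.

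Among the 2 miRNA rows, Mir6236 had 74.9 and 90.1 FPKM in oocytes, 6.73 and 7.69 in 2-cell control, and 90.6 and 106 in 4-cell control embryos. Its mature product is shown as the only RNA of the group for which a short sequence is annotated, with the seed (bases 2 to 8) in capitals (GRCm38.p6, chr9:110281353-110281371, plus strand).
mmu-miR-6236: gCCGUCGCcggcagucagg
These libraries do not separate the mature miRNA from longer RNA of the same locus.

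**Figure D1:**
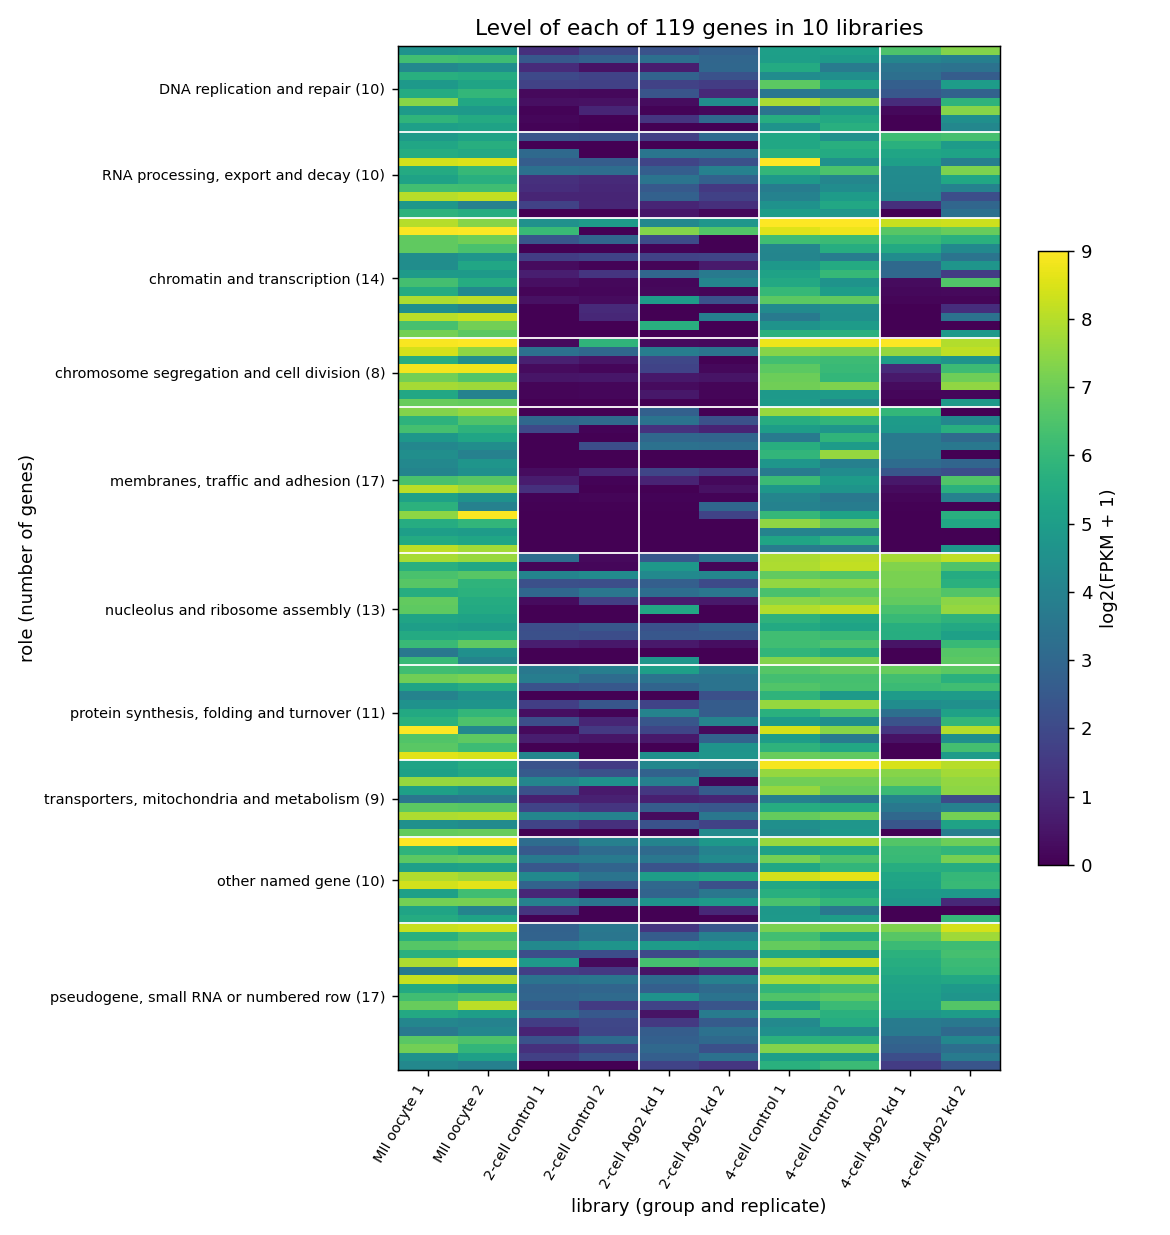
Each of the 119 genes is 1 line and each of the 10 libraries 1 column, with colour giving log2(FPKM + 1) from 0 (dark) to 9 or more (yellow); white lines separate the groups of libraries and the roles, and genes within a role are ordered by 4-cell Ago2 kd replicate 1. The 2 oocyte and 2 4-cell control columns are bright by the rule, and 33 genes lie below 1 FPKM in 4-cell Ago2 kd replicate 1 against 10 in replicate 2.

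Across the members, the median of the mean FPKM was 54.6 in oocytes, 1.49 in 2-cell control and 49.7 in 4-cell control embryos. In 2-cell controls, 23 members were listed at 0 in both libraries, 11 in 1 library, and 49 had 1 FPKM or more in both. Mean levels in 4-cell controls ranged from 0.0485 times (Ndfip1, an adaptor of ubiquitin ligases) to 13.4 times (Mat2a, which makes S-adenosylmethionine) those in oocytes, with a median of 0.948. The 2 control 4-cell libraries lay above both oocyte libraries for 37 members and below both for 46, so the level reached again was on either side of the level stored.

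At the edge of the rule, Gm7935, Mad2l2 and Slc39a9 lay nearest inside. Mad2l2, a mitotic checkpoint and repair protein, had 10.2 and 29.2 FPKM in 4-cell controls, and Slc39a9, a zinc transporter, had 14.3 and 10.4. Just outside lay Mcm6, Mir1892 and Dnajc1. Mcm6, part of the replicative helicase, had 20.6 and 9.98 FPKM in oocytes, 0.811 and 1.20 in 2-cell controls, and 154 and 111 in 4-cell controls. Dnajc1 missed by its 4-cell control value of 9.94 FPKM.

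The thresholds were also applied to 1 library per stage and read in the other. Of the 337 genes that met the thresholds in replicate 1 of the control groups, 126 (37.4%) met them in replicate 2, against 7.91% of the 2756 genes with 10 FPKM or more in oocyte replicate 1. Of the 241 genes chosen in replicate 2, 126 (52.3%) met them in replicate 1, against 9.34% of 2623 genes. These counts carry no test, and the replicate numbers do not link libraries of different stages.

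In Ago2 kd embryos, members were low at the 2-cell stage as well. Both 2-cell Ago2 kd libraries had at most 25% of the lowest oocyte value for 86 of the 119 members (72.3%), against 29.3% of the 2474 genes with 10 FPKM or more in oocytes. This count shares the oocyte values with the choice of members and is a description. The 2474 genes also include names that the choice left out. The median of the mean FPKM was 4.52, and 12 members were listed at 0 in all 4 libraries of 2-cell embryos. These were Nip7, Arf6, Cebpz, Ncbp2, Brk1, Snx30, Cd2ap, Cfap20, Itgb1, Ndc80, Ndfip1 and Phf13. In pooled embryos, fewer cells at the stage in which a gene is transcribed and less RNA per cell cannot be told apart.

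From 2-cell to 4-cell Ago2 kd embryos, 56 of the 119 members (47.1%) rose and 1 fell at an unadjusted p below 0.05 in limma's moderated test on log2(FPKM + 1). Of the 8726 genes tested, 23.8% rose and 20.5% fell. With p-values adjusted across the whole table (Benjamini-Hochberg), 49 members rose (background 18.8%) and 1 fell (background 16.5%). The spread in this test was pooled over all 5 groups, including the oocyte and control libraries that chose the members. Its p-values and counts for members, here and below, are therefore not independent of the choice. With only the 2 Ago2 kd groups fitted, which leaves those libraries out, 47 rose before adjustment and 31 after it, and 0 fell. The share of all genes tested that rose in that fit is not given here, so its counts are a description. The median change was 2.16 for the members and 0.18 for all genes tested, on the log2 scale. Both 4-cell Ago2 kd libraries lay above both 2-cell Ago2 kd libraries for 70 members (58.8%, background 34.9%) and below for 1 (background 29.2%). In 2-cell Ago2 kd replicates 1 and 2, 44 and 41 members were below 1 FPKM and could hardly fall further. The background was not matched for level, so the few falls of members are given as a description. All 119 members had at least 1 FPKM in at least 2 libraries, the filter of the fit, because the rule placed them there through the controls. Without 4-cell Ago2 kd replicate 1, 76 members rose, and without replicate 2, 52 rose. The markers of the oocyte and 2-cell stages given above were higher in 4-cell Ago2 kd than in 4-cell control libraries, and their part in the results of 4-cell Ago2 kd embryos was not tested.

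**Figure D2:**
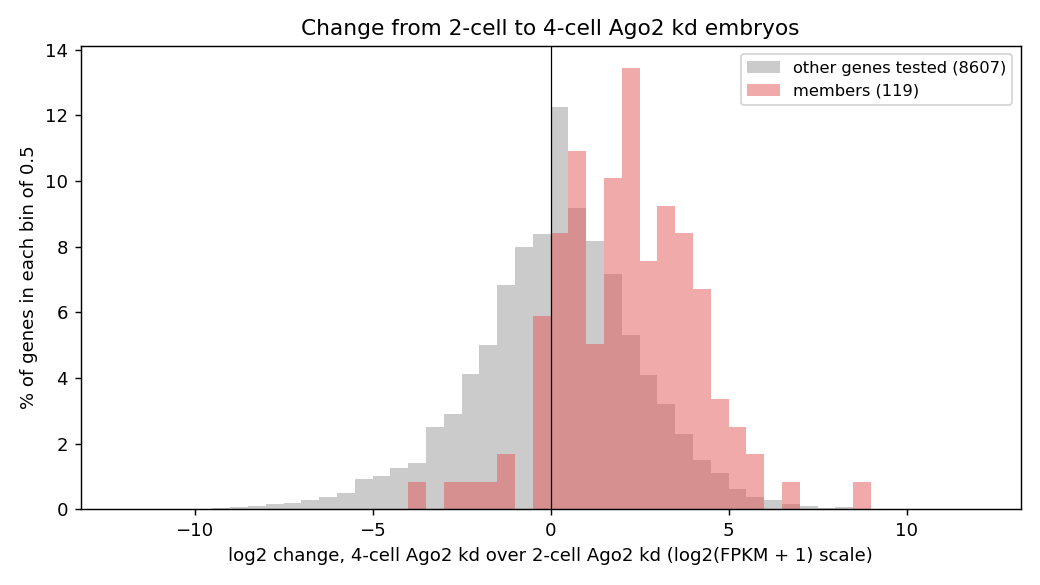
The change from 2-cell to 4-cell Ago2 kd embryos is shown on the x axis as the log2 difference of log2(FPKM + 1) values, in bins of 0.5, and the y axis gives the percentage of genes in each bin. Members (red) are compared with the other genes tested (grey), which were not matched for level. The members' median was 2.16 and that of all genes tested 0.18.

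Genes that build ribosomes showed this rise in 10 of 13 cases, beside 23.8% of all genes tested. Dnajc21, a chaperone partner used in the maturation of the large ribosomal subunit, went from 0.592 and 0.533 FPKM at the 2-cell stage of Ago2 kd to 115 and 172 at the 4-cell stage. The 4-cell values lay on both sides of the 4-cell control values of 168 and 153, and the rise was 6.50 (SE 0.62, adjusted p = 0.000553, limma). Cebpz, a nucleolar protein of the large subunit pathway, was listed at 0 in all 4 libraries of 2-cell embryos. It reached 66.0 and 55.6 FPKM in 4-cell Ago2 kd, above 55.0 and 42.2 in controls (adjusted p = 8.36e-05 for the rise, limma). Values of 0 hold no spread, so this p-value rests in part on them. Dnttip2, which takes part in processing of small subunit RNA, had 4.56 and 9.34 FPKM and then 223 and 284, a rise of 5.06 (SE 0.89, adjusted p = 0.00496, limma).

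Ccdc86 (122 and 93.7 FPKM in 4-cell Ago2 kd), Srfbp1 (49.0 and 42.7) and Rbm28 (47.8 and 33.3) also rose and were high in both libraries. Ftsj3, an rRNA methyltransferase, had 144 and 51.6 FPKM against 186 and 173 in controls. Ncl, nucleolin, had 144 and 45.1 FPKM against 113 and 97.6. For Gnl2, Nip7 and Wdr36, which all act in ribosome assembly, replicate 1 had 0.403, 0 and 0 FPKM whereas replicate 2 had 65.7, 97.7 and 106. These 3 genes did not pass the test, and their 2 libraries lay at opposite ends of the range. Ppan and Wdr43 were high in both 4-cell Ago2 kd libraries, with 157 and 90.1 FPKM and with 83.4 and 191, but were also present in 2-cell Ago2 kd replicate 1, with 26.5 and 41.0 FPKM; Wdr43 rose at an unadjusted p below 0.05 only (adjusted p = 0.0724, limma).

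Across all roles, 59 members (49.6%) had 10 FPKM or more in both 4-cell Ago2 kd libraries, 41 (34.5%) in 1 and 19 (16.0%) in neither. Of the 2198 genes with 10 FPKM or more in both 4-cell control libraries, the shares were 64.2%, 24.7% and 11.1%. Of the 41 members high in 1 library, 33 were high in replicate 2. In 22 members, replicate 1 was below 1 FPKM while replicate 2 had 10 FPKM or more, against 2 members in the other direction. Such splits were found in 266 and 35 of the 2198 genes, so the 4-cell Ago2 kd libraries differed for many genes beyond the members. Only genes high in both controls were counted, so the counts cannot say which library was unusual.

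**Figure D3:**
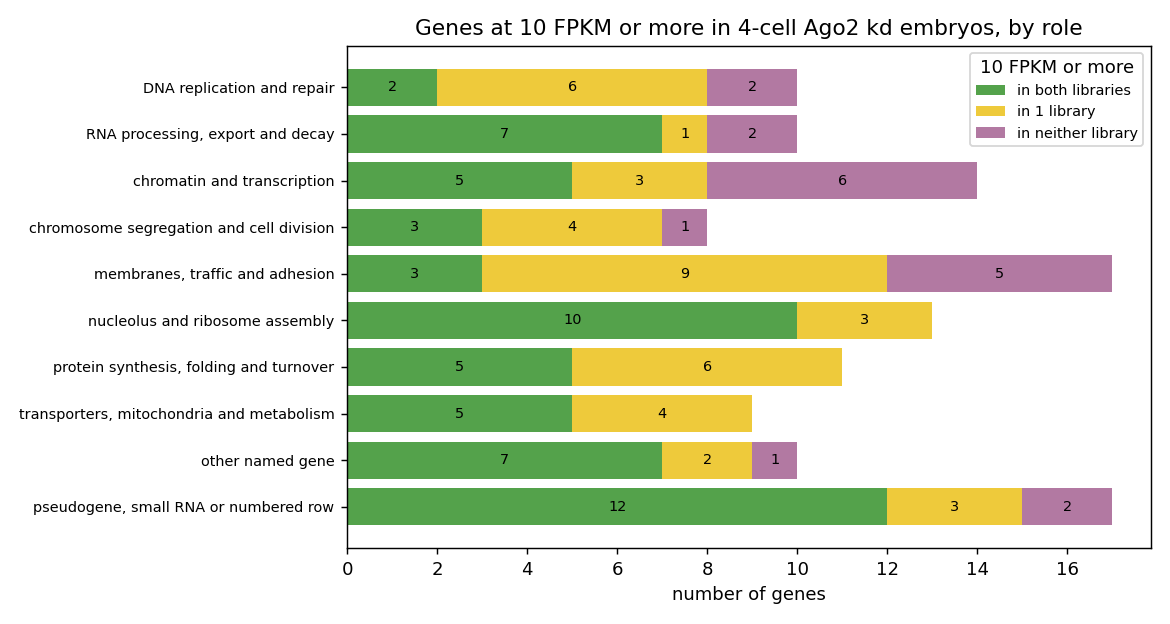
Bars give, for each role, the number of genes with 10 FPKM or more in both (green), 1 (yellow) or neither (purple) of the 4-cell Ago2 kd libraries. Nucleolus and ribosome assembly has 10 of 13 genes in green, whereas membranes, traffic and adhesion has 3 of 17. Of the 2198 genes with 10 FPKM or more in both 4-cell control libraries, 64.2% had 10 FPKM or more in both 4-cell Ago2 kd libraries.

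**Figure D4:**
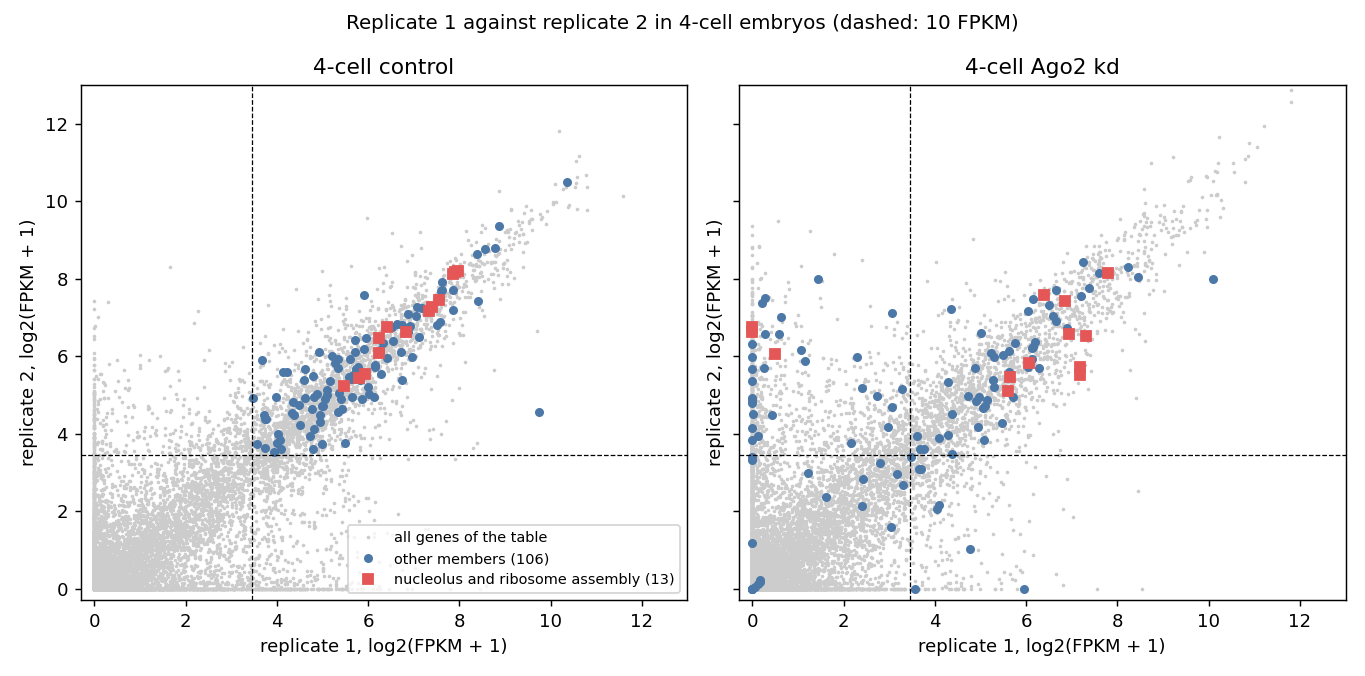
Each point is a gene, with log2(FPKM + 1) of replicate 1 on the x axis and of replicate 2 on the y axis, for 4-cell control (left) and 4-cell Ago2 kd embryos (right); dashed lines mark 10 FPKM, and grey points are all genes of the table. Blue circles are members and red squares those of the nucleolus and ribosome assembly. All members lie in the upper right on the left by the rule, and on the right 33 lie above the line for replicate 2 only and 8 to the right of the line for replicate 1 only.

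Among genes of chromosome segregation, 3 of 8 rose, beside 23.8% of all genes tested. Cdc20, the activator of the anaphase-promoting complex, went from 0.192 and 0.165 FPKM to 1099 and 251 between the Ago2 kd stages, with the controls at 437 and 440.1. Its rise of 8.80 (SE 1.65, adjusted p = 0.00647, limma) had the highest estimate of the members. Its 2-cell control libraries differed, with 0.176 and 58.8 FPKM. Haus3, part of the augmin complex of the spindle, had 12.9 and 9.93 FPKM and then 191 and 283, both above the controls at 165 and 148. Cdc25a, the phosphatase that starts cell cycle steps, had 2.80 and 0.0496 FPKM and then 32.3 and 24.3, both below the controls at 75.9 and 70.5.

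A further 4 genes of the spindle were high in 1 of the 4-cell Ago2 kd libraries only. Katna1, which cuts microtubules, had 0.204 FPKM in replicate 1 and 179 in replicate 2, with controls at 133 and 154. Cenpe, a kinetochore motor, had 0.543 and 129 FPKM, and the kinetochore genes Dsn1 and Ndc80 had 1.08 and 70.7 and 0 and 28.9. Cdc27, a subunit of the anaphase-promoting complex that Cdc20 activates, had 0.129 and 0.118 FPKM in 4-cell Ago2 kd embryos against 27.2 and 29.9 in controls. Cdc20 and Cdc27, which act in the same complex, were thus at opposite ends of the group in 4-cell Ago2 kd embryos.

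Of the 10 genes of DNA replication and repair, 3 rose, beside 23.8% of all genes tested, and 1 of them passed adjustment. Gins1, a subunit of the replicative helicase complex, went from 3.90 and 5.81 FPKM to 89.3 and 159, a rise of 4.38 (SE 0.43, adjusted p = 0.00059, limma). Its 4-cell Ago2 kd libraries lay above the controls at 33.0 and 34.2 FPKM. Mcm10 had 5.62 and 30.6 FPKM and Sprtn, a protease that removes proteins crosslinked to DNA, 16.0 and 13.7; both rose at an unadjusted p below 0.05 only. Orc1, of the origin recognition complex, was listed at 0 in replicate 1 and had 16.8 FPKM in replicate 2. Mad2l2 had 0.15 and 164 FPKM, and Traip, a ubiquitin ligase of stalled replication forks, 0.00918 and 21.6, so these genes too were high in replicate 2 only.

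RNA processing genes rose in 5 of 10 cases, beside 23.8% of all genes tested. Ncbp2, the subunit of the nuclear cap-binding complex that holds the cap, was listed at 0 in all libraries of 2-cell embryos. It reached 51.6 and 30.0 FPKM in 4-cell Ago2 kd, beside 39.7 and 50.5 in controls (adjusted p = 0.00019 for the rise, limma). This p-value too rests in part on values of 0, which hold no spread. Phax, the export adaptor of small nuclear RNAs, had 2.15 and 7.96 FPKM and then 72.2 and 81.1, above the controls at 39.7 and 22.7. Exosc9, of the RNA exosome, had 9.91 and 5.99 FPKM and then 18.6 and 39.7. Serbp1, an mRNA-binding protein of the ribosome, had 32.9 and 13.4 FPKM, and its controls differed, with 858 and 22.4. Rbm25 and Prpf6, which act in splicing, reached 1.33 and 6.93 and 0 and 8.92 FPKM, all below 10.

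In the group of transporters, mitochondria and metabolism, 6 of 9 genes rose, beside 23.8% of all genes tested. Mat2a went from 17.1 and 14.0 to 349 and 264 FPKM, with 466 and 651 in 4-cell controls. Atp1b3, a subunit of the sodium pump, had 14.1 and 0.0924 FPKM and then 146 and 187, above 131 in each control. Slc25a3, the mitochondrial phosphate carrier, had 1.78 and 5.21 FPKM and then 69.8 and 177. Tmem70, an assembly factor of the mitochondrial ATP synthase, had 6.15 and 10.2 FPKM and then 165 and 217, on both sides of 189.9 and 180.0 in controls.

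Protein synthesis, folding and turnover genes rose in 5 of 11 cases, beside 23.8% of all genes tested. The autophagy genes Atg3 (69.6 and 74.6 FPKM in 4-cell Ago2 kd) and Atg16l1 (76.7 and 50.8) and the deubiquitinase Usp10 (119 and 104) were among them. Yrdc, which takes part in tRNA modification, rose from 2.53 and 5.08 to 19.9 and 21.7 FPKM, whereas the 4-cell controls had 191 and 206. The chaperone Hsp90aa1 had 1.71 FPKM in replicate 1 and 253 in replicate 2, and its oocyte libraries also differed, with 801 and 17.5. P4hb, which forms disulfide bonds in secreted proteins, was listed at 0 in replicate 1 and had 78.8 FPKM in replicate 2.

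Chromatin and transcription genes rose in 5 of 14 cases, and 1 fell, beside 23.8% and 20.5% of all genes tested. Hdgf, a chromatin-binding growth factor with the highest mean FPKM of the members in 4-cell controls (1313 and 1448), rose from 17.6 and 25.8 to 299 and 315. Leo1, of the PAF1 elongation complex, had 65.1 and 52.0 FPKM in 4-cell Ago2 kd, and Med20, of Mediator, 43.2 and 18.2, with rises of 4.86 and 4.82. Sall4, a zinc finger factor of pluripotent cells, was the member that fell: it went from 30.7 and 3.85 FPKM to 0.0929 and 0.0878 (change -3.51, SE 0.79, adjusted p = 0.0136, limma). In controls it had 0.337 and 0.197 FPKM at the 2-cell and 105 and 110.4 at the 4-cell stage, the opposite order. The fall did not pass when only the 2 Ago2 kd groups were fitted (unadjusted p = 0.0551, limma), and without 4-cell Ago2 kd replicate 2 no member fell after adjustment, while 3 fell before it.

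Other chromatin genes were low in both 4-cell Ago2 kd libraries. Hdac2, a histone deacetylase, had 0.13 and 0.172 FPKM against 64.0 and 31.3 in controls. Trim28, a corepressor for zinc finger proteins, had 7.22 and 2.04 against 35.8 and 63.6. Akirin2, a nuclear cofactor, was listed at 0 in both libraries against 23.4 and 29.4, and had 50.7 and 0 FPKM at the 2-cell stage. Of the 14 genes in this role, 6 were below 10 FPKM in both 4-cell Ago2 kd libraries, 5 had 10 FPKM or more in both and 3 in 1. Of the 2198 genes with 10 FPKM or more in both 4-cell control libraries, 11.1% were below it in both Ago2 kd libraries.

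Membrane, traffic and adhesion genes rose in 3 of 17 cases, which were Vamp3, Cmtm6 and Snx30, beside 23.8% of all genes tested. Vamp3, a SNARE of recycling vesicles, had 1.41 and 0.876 FPKM and then 28.3 and 50.5, with controls at 30.9 and 25.2. Itgb1, the beta chain of many integrins, was listed at 0 in both Ago2 kd groups and in 2-cell controls, and had 37.7 and 55.4 FPKM in 4-cell controls. Cd2ap, an adaptor of the actin cortex, had the same pattern, with 15.3 and 14.8 FPKM in 4-cell controls. Arf6 and Lamp1, of endocytosis and the lysosome, were high in replicate 1 only, with 10.8 and 61.4 FPKM, and were listed at 0 in replicate 2. Atp6ap2, an accessory protein of the vacuolar proton pump, had 0.5 and 94.1 FPKM.

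The group of other named genes rose in 6 of 10 cases, beside 23.8% of all genes tested. Ccdc117 had 15.6 and 26.7 FPKM and then 95.4 and 129, below the controls at 195 and 207. Wdr53 had 3.99 and 5.15 FPKM and then 48.1 and 47.1, within the control values of 39.7 and 60.1. Xrcc6bp1, the mouse gene of a mitochondrial metallopeptidase, had 7.57 and 14.9 FPKM and then 68.5 and 60.3, above 34.7 and 39.7 in controls. Khdc3, an oocyte protein of the subcortical maternal complex, had 6.36 and 10.9 FPKM and then 28.9 and 27.8, a rise at an unadjusted p below 0.05 only. Pithd1, among the 5 lowest changes of the members beside Sall4, Akirin2, Ubqln1 and Plekha3, had 23.0 and 29.0 FPKM and then 26.1 and 1.05, and did not pass the test.

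**Figure D5:**
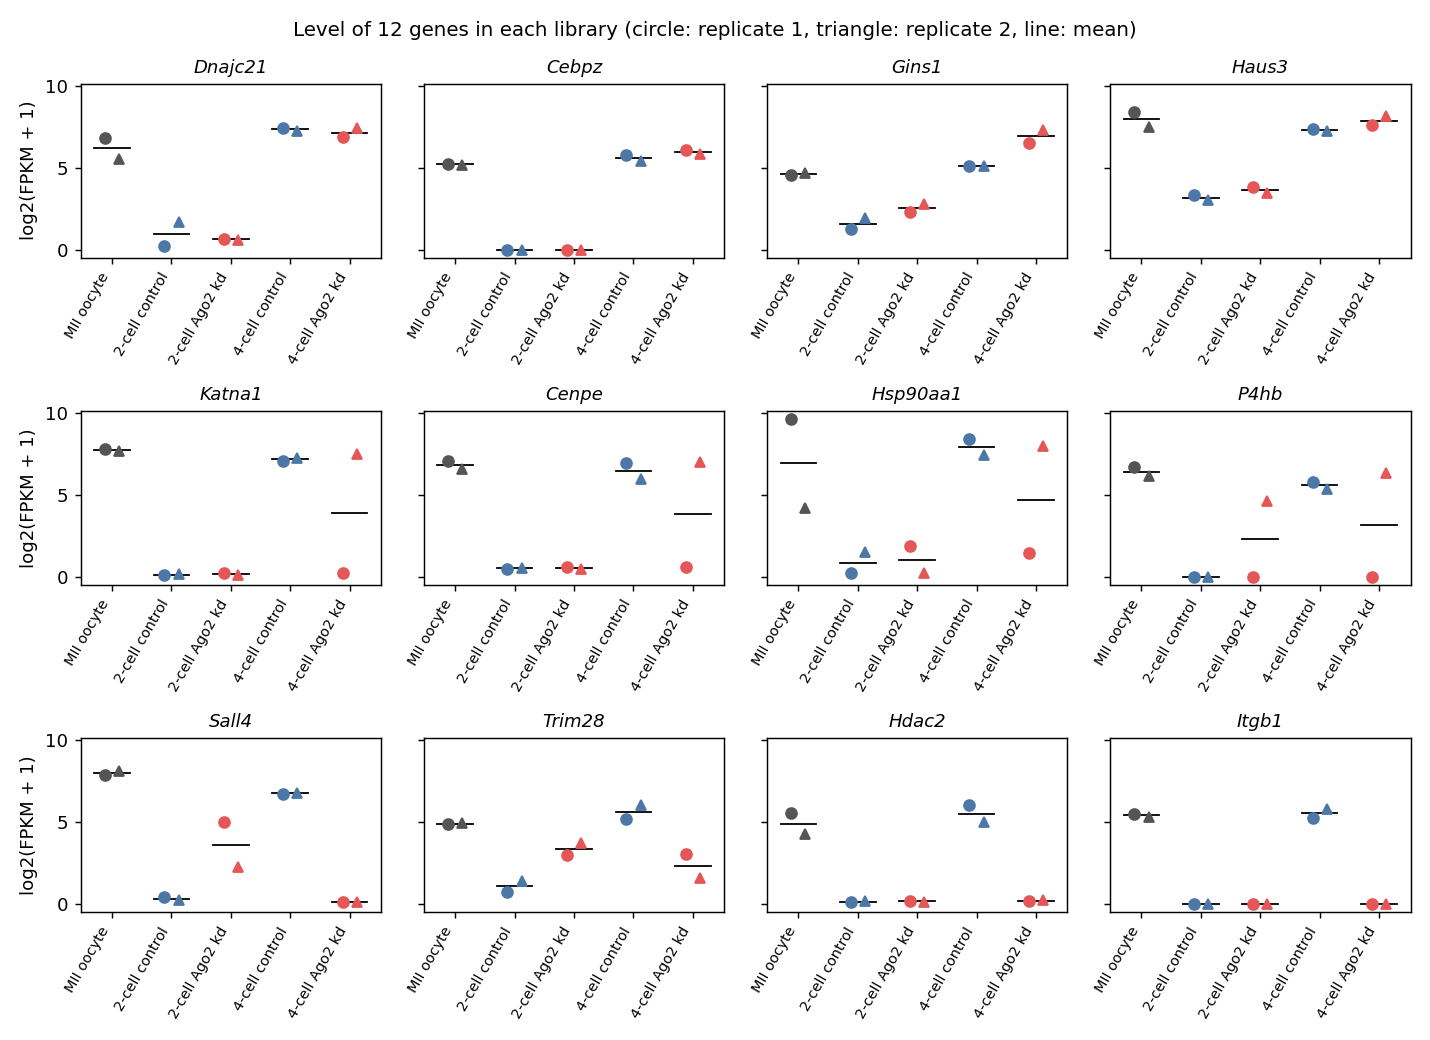
Log2(FPKM + 1) of 12 genes in each library, by group, with circles for replicate 1, triangles for replicate 2 and lines for the mean of both. The upper 4 genes are high in both 4-cell Ago2 kd libraries, the middle 4 only in replicate 2, and the lower 4 are below 10 FPKM in both.

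Among the numbered loci and pseudogenes, 10 of 17 rose, beside 23.8% of all genes tested. Gm10241 (1.63 and 4.43 to 152 and 342 FPKM) and Gm12918 (0.401 and 1.07 to 44.1 and 63.8) were among the 10 largest rises of the members. Reads of a processed pseudogene and its parent can be shared, so these levels are uncertain. Anp32b, a histone chaperone, and Anp32b-ps1 had similar profiles, at 160.2 and 93.2 and 79.8 and 69.3 FPKM in 2-cell Ago2 kd, and their values cannot be told apart.

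In Ago2 kd embryos the whole pattern was met again by 25 members (21.01%), when the 2-cell and 4-cell thresholds were read in the Ago2 kd libraries with the same oocyte libraries. Of the 2321 genes with 10 FPKM or more in oocytes and a retained name, 52 (2.24%) met it, so members made up 48.1% of them. Both counts share the oocyte libraries with the choice of members. The 25 included 7 of the 13 nucleolar genes, which were Ccdc86, Cebpz, Dnajc21, Dnttip2, Ftsj3, Rbm28 and Srfbp1. They also included Cdc20, Cdc25a, Haus3, Hdgf, Leo1, Med20, Ncbp2 and Vamp3, and none of the 10 genes of DNA replication and repair. Without 4-cell Ago2 kd replicate 1 the count was 49, and without 2-cell Ago2 kd replicate 2 it was 41.

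The direct comparison of Ago2 kd with control embryos used the same control libraries that chose the members, which by the rule are low at the 2-cell and high at the 4-cell stage. Its counts are therefore a description. At the 2-cell stage, 16 members were higher in Ago2 kd embryos and 2 lower at an unadjusted p below 0.05 (limma; background 2.96% and 3.0% of all genes tested). None passed in either direction after Benjamini-Hochberg adjustment (background 0.332% and 0.218%). The 16 did not include Anp32b, whose estimate was the largest and whose controls were 66.9 and 0 FPKM. Anp32b-ps1, Sall4, Farsa and Tmed9 followed it, all at an unadjusted p below 0.05, which Anp32b-ps1 lost without either Ago2 kd library or without 2-cell control replicate 2. Farsa, a subunit of phenylalanyl-tRNA synthetase, had 15.2 and 5.07 FPKM in Ago2 kd and 0.273 and 0.0516 in control embryos. Tmed9, of the early secretory pathway, had 7.00 and 6.66 and was listed at 0 in both controls. Mat2a was also higher, with 17.1 and 14.0 against 3.85 and 2.06 FPKM. The 2 lower genes were Leo1 and Gm10241. Cdc20, Atp1b3 and Prkab1 had larger negative estimates that rested on 1 library each and did not pass the test. Prkab1, of the AMP-activated kinase, had 0.206 and 10.8 FPKM against 16.4 and 14.8 in controls. With only the 2 groups of this stage fitted, 9 members were higher and 0 lower before adjustment, and without 2-cell control replicate 2, 13 were higher and 0 lower. Without 2-cell Ago2 kd replicate 2, 4 members were higher after adjustment and 4 lower before it, and without 2-cell control replicate 1, 3 were higher after adjustment.

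At the 4-cell stage, 39 members were lower in Ago2 kd embryos and 2 higher at an unadjusted p below 0.05 (limma; background 8.07% and 7.37%), and 15 were lower and none higher after adjustment (background 2.77% and 1.23%). With only the 2 groups of this stage fitted, 30 were lower before adjustment and 0 after it. Both Ago2 kd libraries lay below both control libraries for 65 members (background 16.9%) and above for 9 (background 20.1%). The median difference was -1.35 on the log2 scale, and that of all genes tested was 0.00. The 2 higher genes were Gins1 and Phax, and Phax lost its call without either Ago2 kd library or without 4-cell control replicate 2. Gm7846 (99.6 and 208 against 77.1 and 45.5 FPKM) came next and did not pass. Sall4, Itgb1, Hdac2, Arf6 and Lamp1 had the largest differences downward, of which the first 3 belonged to the 15. Lamp1 kept no call without 4-cell Ago2 kd replicate 2 or without either control. Others of the 15 were Cdc27, Trim28, Cd2ap, Yrdc, Hdgf, Zfand5 (38.0 and 62.1 against 333 and 400.2 FPKM), Stk24, Gch1 (11.1 and 14.3 against 47.1 and 43.2), AI846148, Ybx1-ps2 and Gm11560. Hdgf and Yrdc were thus among the genes that rose between the 2 stages in Ago2 kd embryos and still lay below control. Itgb1, Cd2ap and Stk24 were listed at 0 in both 4-cell Ago2 kd libraries, and the first 2 also in all 4 libraries of 2-cell embryos. Values of 0 hold no spread, so the p-values of these genes rest in part on them. Without 4-cell Ago2 kd replicate 2, 36 were lower after adjustment and 59 before it, and without replicate 1, 6 were higher before it.

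Families defined by gene symbol give the wider setting, with calls at an unadjusted p below 0.05 (limma). Of all 8726 genes tested, 119 were members, and between the Ago2 kd stages 23.8% rose and 20.5% fell. The family counts are a description to be read beside these shares. Of 64 genes of DNA replication and repair that were tested, 5 were members, and between the Ago2 kd stages 18 rose and 10 fell; the symbol pattern of this family counted Xrcc6bp1 and missed others of the 10 genes placed in that role by hand. Of 93 genes of cell cycle and mitosis, 5 were members, 18 rose and 14 fell. Of 83 chaperones and prolyl isomerases, 3 were members, 21 rose and 12 fell. Of 155 genes of RNA processing and decay, 4 were members, 37 rose and 22 fell. Of 79 chromatin regulators, 3 were members, 20 rose and 15 fell. Of 148 genes of membrane traffic, 4 were members, 22 rose and 33 fell. Of 142 ubiquitin and SUMO enzymes, 2 were members, 21 rose and 39 fell. Of 105 genes of mitochondrial import and respiration, 1 was a member, 38 rose and 9 fell. Of 26 genes of the vacuolar proton pump and lysosome, 2 were members, 9 rose and 1 fell. Of 119 transcription regulators, 2 were members, 31 rose and 22 fell. Of 81 signalling kinases and phosphatases, 1 was a member, 13 rose and 18 fell. No gene in the lists of nuclear pores, of actin and tubulin, of glycolysis and nucleotide synthesis or of lipid synthesis was a member. The list of elongation factors and tRNA synthetases also held no member, because its symbol pattern did not take in Farsa. The median changes of these families with members ran from -0.16 for signalling kinases and phosphatases to 1.33 for mitochondrial genes, beside 2.16 for the members.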

How the data were processed

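The submitters' processing notes name CASAVA 1.4, HISAT2 2.1.0, StringTie and the mouse build mm10 (GRCm38). By the Methods, reads passed through FastQC and Trim Galore and were aligned with HISAT2, gene counts were made with HTSeq-count, and the authors computed FPKM using StringTie. The deposited table gives FPKM of 21437 named genes in 10 libraries and was used unchanged; how transcripts were reduced to 1 row per name is not given in the sources used here. Depth is unknown, so no counting intervals are given. Members and gene lists were chosen with earlier results of these data known, and roles were assigned after values were seen. The genes named by rule were the 10 largest rises within Ago2 kd (unadjusted p below 0.05, libraries not overlapping) and the 5 lowest changes, the 5 largest and 3 largest opposite differences from control at each stage, the 5 highest in 4-cell controls, up to 3 members per family list by that level, and 3 genes nearest the thresholds on each side; all others were chosen after their values were seen.

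The scale was log2(FPKM + 1), fitted by limma 3.58.1 in R 4.3.3 with 1 mean for each of 5 groups, 10 libraries, 5 residual degrees of freedom and moderated variances with a trend (median prior degrees of freedom 1.89). Genes had to reach 1 FPKM in 2 or more libraries (8726 genes). Tests were two-sided at a p of 0.05, unadjusted and after Benjamini-Hochberg adjustment; changes on this scale understate those of low genes. An exact permutation test of 2 against 2 libraries cannot go below 0.333. The fit was tested on simulated data. Alternatives were another pseudocount, no filter, 2 other scalings, a replicate block, a fit of 2 groups, other thresholds and leaving out each library. Positions and transcripts came from GENCODE M21 (GRCm38; 20460 of the names in the table matched), promoters and the miRNA from RefSeq. Figures were drawn with matplotlib 3.10.9. The Ago2 transcript was not analysed here.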

Additional observations from a re-analysis of the deposited data

How the results depend on the processing

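The rise from 2-cell to 4-cell Ago2 kd embryos was seen in 47 to 57 members at an unadjusted p below 0.05 under the alternatives that kept all libraries (pseudocount of 0.1, no filter, library scaling, quantile normalization, replicate block, only the 2 groups compared, a fold of at least 2), and in 52 to 76 when 1 library was left out; after adjustment the range with 1 library left out was 47 to 67. With only the 2 groups compared, 31 members rose after adjustment, and none fell before or after it; the fall was seen in 2 to 3 members without 1 library, and in 0 to 2 after adjustment. With the replicate block, 57 rose, 16 were higher in 2-cell and 38 lower and 1 higher in 4-cell Ago2 kd embryos, and no other count moved by more than 1.5 times; the numbers do not pair the libraries (r of replicate differences between groups -0.0931 to 0.0924).

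At the 2-cell stage, only the 2 groups compared gave 9 members higher and 0 lower, and a pseudocount of 0.1 gave 2 higher after adjustment; without 1 library the ranges were 13 to 18 higher and 0 to 4 lower, and 0 to 4 and 0 to 1 after adjustment. At the 4-cell stage, 5 members were higher with library scaling and 4 with quantile normalization (1 each after adjustment), 1 with a pseudocount of 0.1; without 1 library, 1 to 6 were higher (0 after adjustment) and 28 to 59 lower (12 to 36 after adjustment). With only the 2 groups compared, 0 were lower after adjustment. The causes were not tested. Library scaling moved the median change of all genes between the Ago2 kd stages from 0.18 to 0.02, and that of members from 2.16 to 2.02.

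The number of members was 253 with the mean of the 2 libraries, 77 with 8-fold and 202 with 2-fold steps, 163 and 82 with minima of 5 and 20 FPKM, 89 with library scaling and 135 to 173 without 1 library. Members meeting the rule in Ago2 kd libraries numbered 62 with means, 16 with scaling and 30 to 49 without 1 library. Of 310 values recomputed for named genes, 277 kept their direction and side of the threshold, 18 lost and 11 gained it, and 4, none of which had passed it, changed sign when 1 library was left out. The ranges were -4.60 to 0.33 for Ubqln1, -3.71 to 0.015 for Pithd1 and -2.97 to 0.0053 for Plekha3 within Ago2 kd, and -5.66 to 0.0030 for Cdc20 against control at the 2-cell stage. The 2 libraries per group and the unknown depth limit every value.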
